A study of Mus musculus with 30 samples.

Results

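H3K27me3, the trimethylation of lysine 27 on histone H3, was compared between mouse embryonic stem (ES) cells without knock-down and cells in which EPOP was knocked down. The comparison rested on 2 peak lists, taken by the sample labels, with peaks on chromosomes 1 to 19 only. The list without knock-down held 8720 peaks and the knock-down list held 7752, together 16472 of the 234847 peaks on these chromosomes in the 20 lists of the series. The other lists are peaks of Suz12, Jarid2, EPOP, Elongin B (EloB) and H3K4me3 from the same line, and they were used here to describe what else was bound or marked where H3K27me3 peaks were kept, missing or new.

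All cells were E14Tg2A, a mouse ES cell line, grown undifferentiated without feeder cells in serum with leukaemia inhibitory factor (LIF). EPOP (labelled C17orf96) was depleted by a short hairpin RNA delivered by lentivirus, with puromycin selection of stably infected cells, so the cells keep an intact gene. The list without knock-down was taken as the hairpin control, and its track name carries sct, but its sample labels name no hairpin. Both libraries were made by chromatin immunoprecipitation and sequencing (ChIP-seq) after formaldehyde crosslinking, with the same antibody and antibody lot. How much EPOP remained in the cells of these 2 libraries was not measured here. The track name of the knock-down list carries SH3, while those of the Suz12, Jarid2 and H3K4me3 lists upon EPOP knock-down carry sh_4, and no source at hand says what these names mean. Values of different targets may therefore come from different hairpins or cultures.

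Polycomb repressive complex 2 (PRC2) writes H3K27me3, a mark of silent developmental genes, and in ES cells much of it lies at CpG-rich promoters that also carry H3K4me3. Suz12 is a core subunit of PRC2. Jarid2 and EPOP are accessory proteins that bind PRC2, and EPOP also binds Elongin B and C, partners of a factor of transcription elongation. H3K27me3 can extend from the sites where PRC2 is recruited into the neighbouring chromatin.

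There was 1 list per condition, so no difference between the conditions has a replicate check and no test was made. The 95% intervals below are Wilson intervals for shares and order-statistic intervals for medians. They cover only the counting of peaks within these 2 libraries, and peaks of 1 library are not replicates. Read depth is unknown for both lists. To show how far lists of this series differ without a knock-down, the Suz12 and H3K4me3 lists without knock-down, 2 of each, were compared by the same code.

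Upon EPOP knock-down the H3K27me3 list held fewer but wider peaks, and nearly all strong peaks were found again. The median peak width was 1453.5 bp without knock-down and 1668.5 bp upon knock-down. Of the 8720 control peaks 2009 (23.0%, 22.2 to 23.9) met no knock-down peak, counting overlaps from 1 bp, and are called missing. Of the 7752 knock-down peaks 1984 (25.6%, 24.6 to 26.6) overlapped no control peak and are called new. The missing and the new peaks were alike in size: medians of 908 bp and 798 bp, against 1743 bp for kept control peaks. The peaks that differ between the lists were thus mostly narrow ones, and their numbers nearly balanced. Counting only peaks with a score of at least 100, the lists held 5050 and 5059 peaks, so the lower number upon knock-down was seen only with the weaker peaks included. Scores of separate lists need not be on 1 scale.

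Counted in bases, the knock-down list covered more. The lists shared 13.3 Mb, 79.5% of the control bases and 73.3% of the knock-down bases, while 3.43 Mb were covered in the control list only and 4.85 Mb in the knock-down list only. Missing peaks took away 2.15 Mb and new peaks added 1.82 Mb. The surplus of the knock-down list lay in regions found in both lists. Pairs of 1 control peak and 1 knock-down peak contributed 0.983 Mb more upon knock-down. Groups in which several control peaks lay under 1 knock-down peak contributed 0.459 Mb more. On 17 of the 19 chromosomes the covered length was greater upon knock-down, with ratios from 0.962 on chromosome 15 to 1.25 on chromosome 14.

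Each list gives a score for every peak. It is the authors' value, of a kind that the labels do not define, and was used only to rank or filter peaks within a list. When control peaks were split into 5 equal score groups (quintiles, 1 lowest), the kept share was 45.3% in quintile 1, 61.4% in quintile 2, 81.4% in quintile 3, 97.6% in quintile 4 and 99.1% in quintile 5. For Suz12 replicate 1 against replicate 2, without any knock-down, the shares were 47.0% in quintile 1, 95.6% in quintile 3, 99.5% in quintile 4 and 100% in quintile 5. Peaks of quintile 1 were therefore missing about as often in this Suz12 comparison as between the H3K27me3 conditions. Those of quintiles 2 and 3 were missing less often between the replicates. Quintile 1 varied among replicate comparisons: its kept share was 39.2% from Suz12 replicate 2 to replicate 1. For H3K4me3 it was 86.6% from replicate 1 to replicate 2 and 25.6% the other way round. For H3K4me3 without knock-down, 97.0% of the peaks of replicate 1 were kept in replicate 2 and 76.3% the other way round. For Suz12 the shares were 83.4% and 81.4%. The 77.0% of H3K27me3 thus lay at the low end of this range. Only the 76.3%, from the longer to the shorter H3K4me3 list, was lower. The new share is the complement of the kept share taken the other way round, so it adds only that direction for H3K27me3. There 74.4% of knock-down peaks overlapped a control peak. The new share of H3K27me3, 25.6%, was above those of all these replicate comparisons. They were 18.6% and 16.6% for Suz12 and 23.7% and 3.01% for H3K4me3. Lists of different targets may differ in depth and enrichment, so these values set a scale and do not replace an H3K27me3 replicate.

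New peaks were also weak. Of the knock-down peaks 64.7% were new in quintile 1 of the knock-down list by score, 17.4% in quintile 3 and 2.26% in quintile 4. In quintile 5 it was 1 of 1551 peaks. That peak, chr9:28210032-28213178 (mm9, as all coordinates here, counted from 1), was 3147 bp wide. Counting its own list, it was found in 14 of the 20 lists, among them both Suz12 lists and Jarid2 without knock-down. The next by score were chr9:3025204-3027924, chr2:54289471-54291774, chr1:9785879-9788318 and chr10:49501677-49504309, each found in 12 to 14 lists, counted in the same way. The peak at chr9:3025204-3027924 was also called in both EPOP lists upon EPOP knock-down.

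Suz12 regions were defined as merged peaks found in both Suz12 lists without knock-down, 5532 regions covering 16.9 Mb. H3K27me3 peaks on these regions were kept more often than others of the same score. In quintile 1, 499 of 666 peaks on Suz12 regions were kept (74.9%, 71.5 to 78.1), against 291 of 1078 peaks off them (an interval of 24.4% to 29.7%). In quintile 3 the shares were 90.9% (89.2 to 92.4) and 58.2% (53.8 to 62.4), and in quintile 5 they were 99.1% and 96.9% with overlapping intervals. Averaged with equal weight over the quintiles, 88.9% of peaks on Suz12 regions and 61.5% of those off them were kept. The gap between peaks on and off Suz12 regions is thus present among weak peaks of like score, and it closes towards the strongest peaks. Off Suz12 regions, 657 control peaks touched a peak of 1 Suz12 list without lying on a shared region, and 60.1% of them were kept, against 34.6% of the 1919 peaks with no peak in either Suz12 list.

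**Figure D1:**
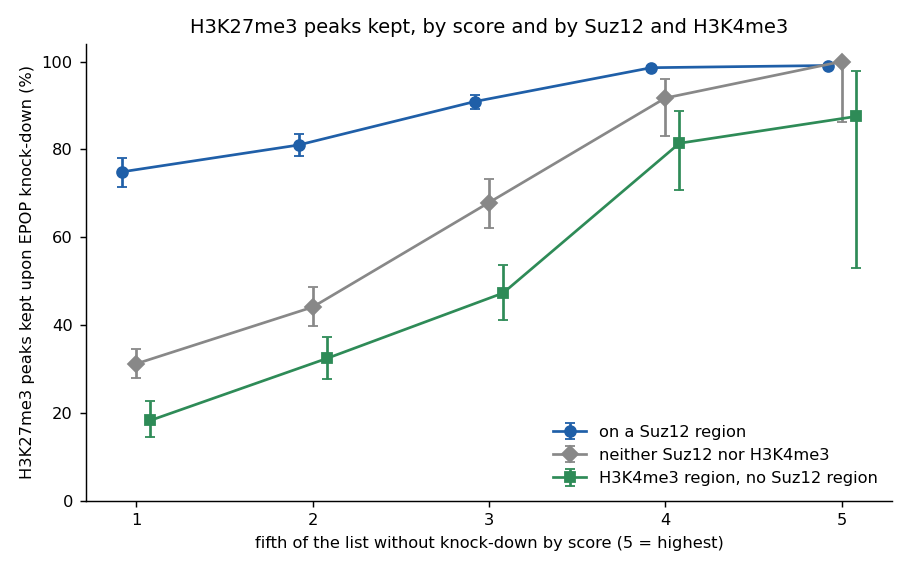
Share of H3K27me3 control peaks that overlap a knock-down peak (vertical axis, percent) by score quintile of the control list (horizontal axis), for peaks on Suz12 regions, peaks on H3K4me3 regions off Suz12, and peaks on neither. Points are shares and bars are Wilson 95% intervals over peaks of 1 library. In quintile 1 the shares are 74.9%, 18.3% and 31.2%, and all 3 curves climb towards the highest scores.

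The peaks off Suz12 regions fell into 2 kinds that differed in their counts. H3K4me3, the mark of active and poised promoters, was called at 31513 shared regions of its own 2 lists without knock-down. H3K27me3 peaks that lay on an H3K4me3 region and off Suz12 numbered 1024 without knock-down and 646 upon knock-down, a ratio of 0.631, with 667 missing and 299 new peaks. Peaks on neither mark numbered 1552 and 1688, a ratio of 1.09, with 850 missing and 1094 new. The ratio at H3K4me3 regions was 0.606 after peaks up to 1000 bp apart had been joined, while that of peaks on neither mark then was 0.833, on the other side of 1. Within score quintiles 1, 2 and 3 the kept shares were 18.3%, 32.4% and 47.3% at H3K4me3 regions off Suz12, and 31.2%, 44.1% and 67.9% for peaks on neither. Among peaks off Suz12 regions, those at H3K4me3 regions were thus kept less often in these 3 quintiles. The H3K4me3 list upon EPOP knock-down overlapped 58.2% of the missing peaks, between the 54.3% and 60.9% of the 2 lists without knock-down.

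On Suz12 regions the kept share and the peak number differed in their order by H3K4me3. Of the 595 control peaks on Suz12 regions but off H3K4me3 94.5% were kept, and of the 5549 on both 91.7% were kept. In quintile 1 the shares were 89.7% (84.0 to 93.6) and 70.4% (66.3 to 74.2). The number of peaks on Suz12 regions but off H3K4me3 was 314 upon knock-down, a ratio of 0.528 with 0.618 times the length. On both it was 5104, a ratio of 0.920 with 1.15 times the length. These classes are set by each peak's own extent, and a wider peak is more likely to touch an H3K4me3 region. Of the 595 control peaks 472 (79.3%) lay on a Suz12 region that carries H3K4me3 elsewhere along its length.

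**Figure D2:**
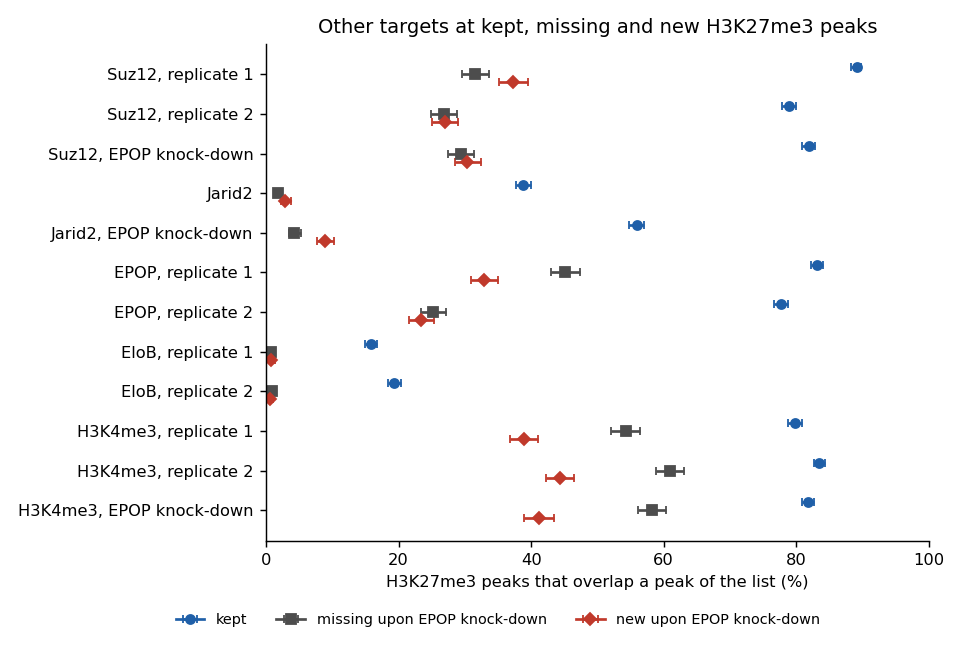
Share of kept control peaks, missing control peaks and new knock-down peaks of H3K27me3 (horizontal axis, percent) that overlap a peak of each of 12 other lists (vertical axis). Bars are Wilson 95% intervals over peaks. Kept peaks overlap Suz12, Jarid2, EPOP and EloB far more often than missing or new peaks, which lie close together for Suz12 and apart for H3K4me3.

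The other targets separated kept peaks from the rest. Suz12 regions were under 84.2% of kept, 24.5% of missing and 29.8% of new peaks. EPOP regions, shared by the 2 EPOP lists without knock-down, were under 78.0% of kept, 26.6% of missing and 23.1% of new peaks. EloB regions were under 13.1% of kept peaks, 0.548% of missing peaks (11 of 2009) and 0.454% of new peaks (9 of 1984). Hardly any missing or new peak lay on Elongin B. No peak of any of the other 18 lists was found at 5.10% of kept, 29.6% of missing and 40.8% of new peaks. Kept peaks also have higher scores, and these shares were not matched for score.

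PRC2 was still called at most Suz12 regions where the H3K27me3 peak was missing. Of the 492 missing peaks on Suz12 regions 401 (81.5%, 77.8 to 84.7) lay on a Suz12 peak of the EPOP knock-down list. Of the 591 new peaks on Suz12 regions 482 (81.6%, 78.2 to 84.5) did so. The missing and the new peaks thus had Suz12 upon knock-down at like shares, with overlapping intervals. Among all kept peaks, on or off Suz12 regions, this share was 81.9%. That of kept peaks on Suz12 regions alone is not given here. Jarid2 peaks lay at 6.71% of the missing peaks on Suz12 regions without knock-down and at 16.3% upon knock-down. At the new peaks on Suz12 regions the shares were 9.31% and 29.4%. Of the 5652 kept peaks on Suz12 regions, 2597 overlapped a Jarid2 peak without knock-down. The Jarid2 list upon knock-down is the longer one, with 3576 peaks against 2585.

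EPOP binding was examined within Suz12 regions, because EPOP and Suz12 regions largely coincide. Of the control H3K27me3 peaks on Suz12 regions 5440 also lay on an EPOP region and 93.4% (92.7 to 94.0) of them were kept, against 81.1% (78.1 to 83.8) of the 704 that did not. The peaks without EPOP had lower scores, with a median of 81.1 against 196.3. By quintile the kept shares were 73.6%, 83.3%, 91.6%, 98.9% and 99.1% with EPOP, and 77.9%, 74.0%, 87.0%, 93.1% and 100% without. In quintiles 1 and 5 the order was thus the opposite of that over all peaks, with overlapping intervals in both. Quintile 5 held 16 peaks without EPOP. The equal-weight means were 89.3% and 86.4%. When EPOP regions were taken from replicate 1 alone, 92.1% of peaks with EPOP and 90.1% of those without were kept, and from replicate 2 alone 93.8% and 79.5%. The size of the difference by EPOP binding thus depended on which EPOP list defined the regions, and it was smaller at like score than over all peaks.

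Counted over Suz12 regions instead of peaks, H3K27me3 was nearly as frequent in both lists. It was present at 4637 of 5532 regions (83.8%) without knock-down and at 4625 (83.6%) upon knock-down. Of the regions with H3K27me3, 354 (7.63%) had none upon knock-down, and of the 895 regions without it 342 (38.2%) had it upon knock-down. When Suz12 regions were taken from replicate 2 alone, the gained share was 20.3%. At the 4735 EPOP-bound Suz12 regions H3K27me3 was present at 89.9% and 89.6%, with 248 regions losing and 235 gaining a peak. At the 797 EPOP-free ones it was present at 47.7% and 47.8%, with 106 losing and 107 gaining one. Neither class showed a net difference in presence, since gains and losses balanced in each.

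H3K27me3 at these regions differed by Jarid2 class. At the 2127 Suz12 regions with a Jarid2 peak without knock-down, H3K27me3 was present at 98.3% and 99.0%, and 10 regions lost and 24 gained a peak. At the 1020 regions where Jarid2 was called only upon EPOP knock-down it was present at 90.8% and 94.0%, with 28 losing and 61 gaining. At the 2385 regions without Jarid2 in either list it was present at 67.9% and 65.5%, with 316 losing and 257 gaining. Gains outnumbered losses at the Jarid2 regions of both kinds, and losses outnumbered gains where Jarid2 was called in neither list. The share of Suz12 region bases under H3K27me3 followed the same order: 83.6% to 90.6% with Jarid2, 71.9% to 79.4% with Jarid2 only upon knock-down, and 54.3% to 54.1% without Jarid2. Region width had that order too, with medians of 3573 bp, 2375 bp and 1610 bp. A wider region is more likely to touch a peak, and the classes were not matched for width or score.

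The width of H3K27me3 peaks was compared over 3930 pairs in which 1 control peak overlapped 1 knock-down peak and neither touched another, so that joining of peaks does not enter. The knock-down peak was the wider in 63.9% of pairs, and the median width was 1846.5 bp without and 2059 bp upon knock-down. The median log2 width ratio was 0.14 (0.12 to 0.16), with quartiles of -0.12 and 0.43. Over 1.5-fold wider upon knock-down were 681 pairs (17.3%), and over 1.5-fold narrower were 261 (6.64%). The knock-down peak spanned the control peak on both sides in 37.2% of pairs, lay within it in 16.0% and was shifted to 1 side in 46.9%.

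Widths of lists without a knock-down differed by as much or more. Suz12 replicate 1 against replicate 2 gave a median log2 ratio of -0.39, and H3K4me3 replicate 1 against replicate 2 gave 0.16. The median difference of H3K27me3 was therefore no larger than the spread between replicate lists of other targets in this series. Its spread among pairs was larger, with an interquartile range of 0.55 on the log2 scale against 0.43 for the Suz12 and 0.27 for the H3K4me3 replicates.

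Within the 2 H3K27me3 lists the width ratio varied between classes of peaks. On Suz12 regions the median log2 ratio was 0.20 (0.18 to 0.21) over 1310 pairs with Jarid2 without knock-down. It was 0.16 (0.11 to 0.20) over 739 pairs with Jarid2 only upon knock-down, and 0.03 (-0.01 to 0.07) over 1169 pairs without Jarid2 in either list. Among the pairs with Jarid2, 77.8% were wider upon knock-down, against 52.1% without it. Within score quintile 5 the 3 medians were 0.16, 0.00 and -0.11, and within quintile 4 they were 0.26, 0.10 and -0.06. In quintile 3 they were 0.40, 0.30 and 0.02. The order of the medians by Jarid2 thus held at like score in these 3 quintiles, and strong peaks without Jarid2 were on the median narrower upon knock-down. In quintile 3 the intervals of the 2 classes with Jarid2 overlapped. In quintile 2 the medians were 0.58, 0.49 and 0.23, and the interval of the first class overlapped both others. In quintile 1, with 18 pairs in the smallest class, the medians were 0.58, 0.86 and 0.49, and the 3 intervals overlapped.

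**Figure D3:**
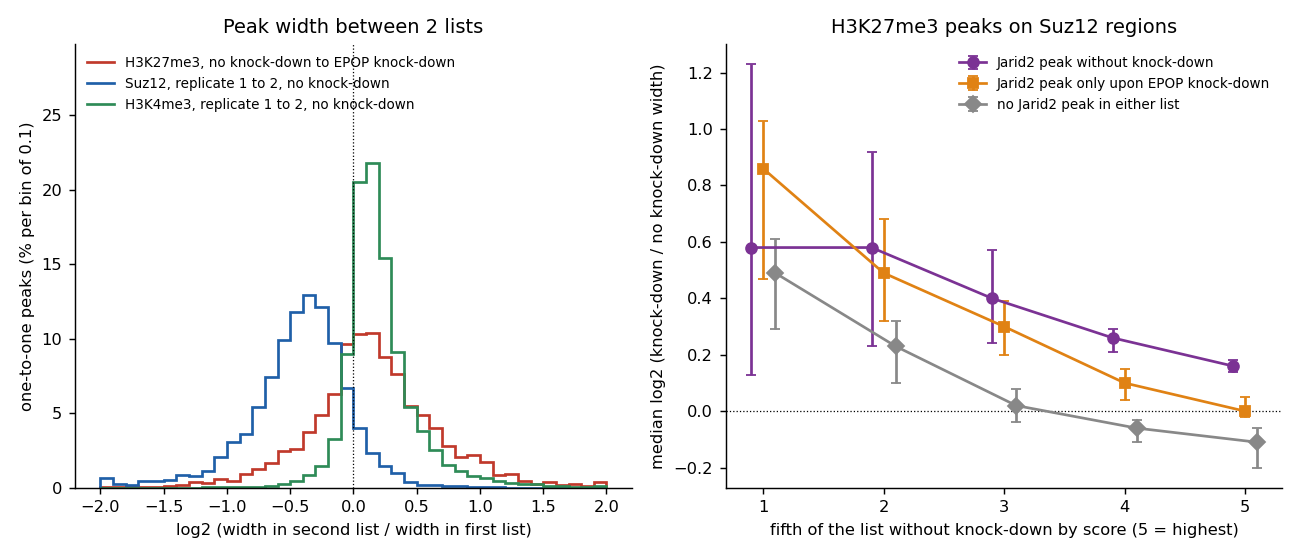
Left, distribution of the log2 width ratio over pairs of 1 peak in each list for H3K27me3 (no knock-down to EPOP knock-down) and for replicate lists of Suz12 and H3K4me3 without knock-down, in percent of pairs per bin, with values beyond the ends placed in the last bins. Right, median log2 width ratio of H3K27me3 pairs on Suz12 regions by score quintile and Jarid2 class, with 95% order-statistic intervals. The H3K27me3 curve is centred at 0.14 and is the broadest of the 3, and in quintiles 3 to 5 the Jarid2 class lies highest.

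The width ratio was also split by EPOP and EloB binding. The median log2 ratio was 0.15 (0.13 to 0.16) over 2940 pairs on Suz12 regions with EPOP and 0.17 (0.10 to 0.27) over 278 without EPOP, with overlapping intervals. It was 0.18 (0.16 to 0.21) over 397 pairs with EloB, of which 85.1% were wider upon knock-down, and 0.14 (0.12 to 0.16) over 2821 without EloB, of which 63.0% were wider. Off Suz12 regions it was 0.07 (0.02 to 0.11) over 712 pairs. The EloB class is the one with the widest peaks, with medians of 3690 bp and 4257 bp.

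Weak and narrow control peaks had the largest ratios. By score quintile the median log2 ratios were 0.42, 0.18, 0.13, 0.10 and 0.11. Classes by control width gave a like order, from 0.40 for the narrowest to 0.08 for the widest. A class chosen on a low control value favours a higher knock-down value, since the control width is also the lower term of the ratio, and how much of the pattern comes with this choice was not tested.

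The ratio of covered bases was highest at the edges of Suz12 regions. Inside Suz12 regions H3K27me3 peaks covered 12.6 Mb without and 13.5 Mb upon knock-down, a ratio of 1.07. In the 1000 bp on either side they covered 1.75 Mb and 2.49 Mb, a ratio of 1.43. From 1000 to 5000 bp away they covered 0.445 Mb and 0.553 Mb, a ratio of 1.24. Beyond that the knock-down list covered less, with ratios of 0.805 from 5000 to 20000 bp and 0.843 farther out. The ratio of the first flank was 1.24 with Suz12 regions from replicate 2 alone and 1.39 from replicate 1 alone. Control peaks already covered 74.4% of the bases inside Suz12 regions and 16.3% of those in the first flank. The ratio inside thus had less room to rise. Upon knock-down these shares were 79.7% and 23.3%, and the gain in bases was larger inside, 0.892 Mb against 0.747 Mb.

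**Figure D4:**
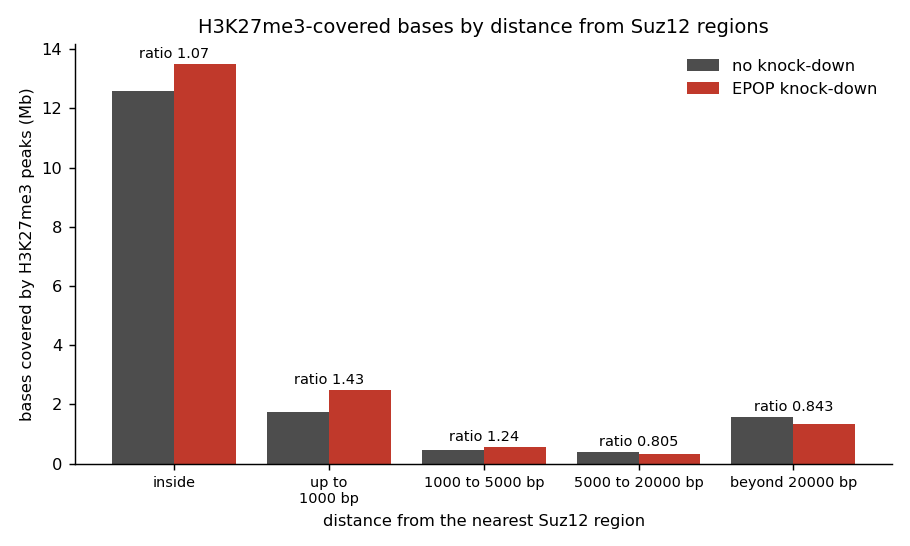
Bases covered by H3K27me3 peaks (vertical axis, Mb) in bands of distance from the nearest Suz12 region (horizontal axis), in the control list (grey) and the EPOP knock-down list (red). The number over each pair of bars is knock-down over no knock-down, 1.43 in the 1000 bp flank and 0.843 beyond 20000 bp.

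New peaks lay near old ones more often than missing peaks did. Of the new peaks 34.9% (32.9 to 37.1) lay within 1000 bp of a control peak, with a median distance of 3361 bp. Of the missing peaks 18.1% (16.5 to 19.9) lay within 1000 bp of a knock-down peak, with a median distance of 26994 bp. From the nearest Suz12 region the median distance was 1379.5 bp for new and 16281 bp for missing peaks. New peaks thus sat beside existing H3K27me3 more often, and missing peaks more often stood alone.

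Neighbouring control peaks often lay under a single knock-down peak. In 864 places 1 knock-down peak overlapped several control peaks, 1986 in all or 22.8% of the control list. In 281 places 1 control peak was overlapped by several knock-down peaks, 568 in all. The 1122 gaps closed in this way had a median of 128 bp, and 95.3% were at most 1000 bp long. After peaks up to 1000 bp apart had been joined within each list, the ratio of peak numbers was 0.892, close to the 0.889 of the lists as deposited. Between Suz12 lists without knock-down a like asymmetry was seen, with 16.9% of the peaks of replicate 2 lying several to a peak under replicate 1.

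Some of the 5 places in which most control peaks lay under a single knock-down peak, none of which touched another knock-down peak, show how this looks. At chr1:19195841-19203821 the knock-down peak of 7981 bp covered 5 control peaks that summed to 3975 bp. At chr4:22404067-22409456 a peak of 5390 bp overlapped 6 control peaks of 5031 bp in all. At chr1:186540028-186560748 and at chr9:74693573-74716103 the knock-down peaks of 20721 bp and 22531 bp each overlapped 7 control peaks, of 19566 bp and 21062 bp in all. An outer control peak ran past 1 end of the knock-down peak in each of these 3 places. In the last 3 places the control peaks already covered most of the joined peak, while at the first the gaps between them made up much of it.

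Peaks of at least 10000 bp numbered 50 without and 151 upon knock-down. Replicate lists without knock-down also differed widely in this number, with 162 and 30 for Suz12 and 73 and 181 for H3K4me3. The kept control peaks with the highest scores were wider upon knock-down. The first, chr11:103665977-103675160, was 9184 bp wide without and 10643 bp upon knock-down. The peak at chr1:78187880-78199114 was 11235 bp and 20684 bp wide, and that at chr2:33482740-33493082 was 10343 bp and 14838 bp wide. All 5 kept peaks named by score were wider upon knock-down, and each was found in 15 to 17 of the 20 lists, its own among them.

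Against this pattern, a few of the strongest and widest control peaks were missing altogether. Kept shares grew with width up to 97.3% between 2000 and 5000 bp and 98.7% between 5000 and 10000 bp, but 9 of the 50 control peaks of at least 10000 bp (18.0%, 9.77 to 30.8) were missing. None of the 151 knock-down peaks of that width was new, which allows a share of up to 2.48%. Of the 872 control peaks with the highest scores 9 were missing (1.03%). The missing peaks of at least 10000 bp were joined with missing peaks up to 20000 bp away into stretches, a rule chosen after the values were seen, which by construction holds all 9 of them. It gave 4 stretches, on chromosomes 2, 6, 11 and 15. These also held all 9 missing peaks among the 872 with the highest scores, and 15 of the 16 missing peaks of quintile 5.

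The stretch chr15:102779763-102848595 held 8 missing peaks over 68833 bp, 6 of them among the 872 with the highest scores. Its strongest, chr15:102819537-102832269, was 12733 bp wide and was found in 17 lists, its own among them. The stretch chr11:96129485-96196029 held 5 missing peaks over 66545 bp. The stretch chr6:52149327-52178072 held 2 over 28746 bp, among them the widest control peak of all, 21763 bp. The stretch chr2:74521376-74543426 held 2 over 22051 bp. The knock-down list had no peak in any of them, and its gaps there ran for 72414 bp, 70305 bp, 57114 bp and 37525 bp. Control peaks covered 97.6%, 78.9%, 51.3% and 98.0% of these gaps, so nearly as much of the chromosome 6 gap was empty in the control list too as was covered there. On both sides of each gap the knock-down list resumed. The widest knock-down peak of all, chr6:52102132-52132423 with 30292 bp, overlapped 7 control peaks and lies before the chromosome 6 stretch, and other knock-down peaks lie between it and the gap.

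Other targets were still called inside these stretches upon EPOP knock-down. Suz12 peaks covered 84.9% of the bases on chromosome 15, 82.0% on chromosome 11, 99.3% on chromosome 6 and 98.7% on chromosome 2 upon EPOP knock-down. Without knock-down they covered 99.5%, 100%, 100% and 100% in replicate 1, and 81.1%, 80.7%, 95.1% and 82.8% in replicate 2, so the knock-down values lay between those of the replicates. Jarid2 peaks covered 50.0% without and 70.8% upon knock-down on chromosome 15, and 49.1% and 66.5% on chromosome 11. On chromosome 6 they covered 74.3% and 94.2%, and on chromosome 2 78.8% and 87.0%. In all, the Jarid2 list covers 5.70 Mb without and 8.69 Mb upon knock-down, so the higher cover is not particular to the stretches. PRC2 subunits were thus called over these stretches in the knock-down lists of Suz12 and Jarid2, while the H3K27me3 list was empty there. EloB peaks, which covered 12.4% to 42.4% of the stretches without knock-down, were absent from all 4 in both EloB lists upon EPOP knock-down. Those lists hold 159 and 111 peaks in all, against 1287 and 1524 without knock-down, so this absence is not particular to the stretches.

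**Figure D5:**
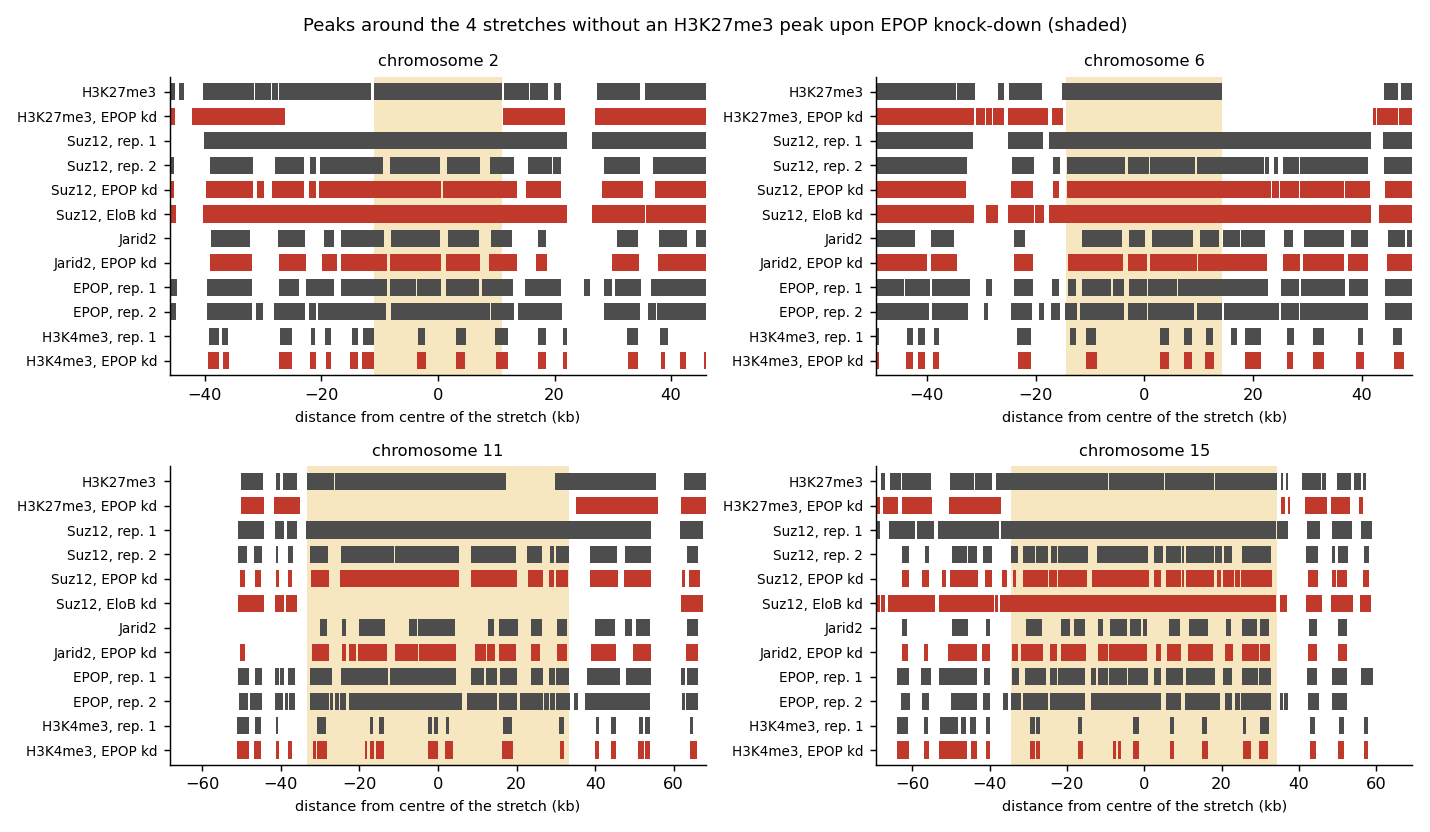
Peaks of 12 lists around the 4 stretches (shaded) in kb from the centre of each stretch, with lists upon a knock-down (kd) in red and the others in grey. The H3K27me3 list upon EPOP knock-down is empty in each shaded stretch while Suz12 and Jarid2 peaks upon EPOP knock-down fill most of it, and the Suz12 list upon EloB knock-down is empty on chromosome 11 only.

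Very wide peaks seldom lacked a counterpart in other lists. Between the Suz12 lists without knock-down, and from either of them to the EPOP knock-down list, none of the peaks of at least 10000 bp (162 in replicate 1 and 30 in replicate 2) lacked a counterpart. None of the 8 of Jarid2 did so upon EPOP knock-down, and none of the 73 and 181 of H3K4me3. In the Suz12 list upon EloB knock-down 1 of the 162 and 2 of the 30 had none, and that list has no peak in the chromosome 11 stretch, where Suz12 replicate 1 covers 100% of the bases. The control H3K27me3 list has like gaps: the 27736 bp that follow the chromosome 6 stretch hold no control peak, while Suz12 peaks of replicate 1 cover 98.6% of them. Inside Suz12 regions, runs of at least 10000 bp without an H3K27me3 peak numbered 3 in the control list (0.0520 Mb, on chromosomes 5, 6 and 11) and 5 in the knock-down list (0.234 Mb, on chromosomes 2, 6, 11 and 15). Empty stretches were thus seen in at least 3 lists of the series, the control among them. Inside Suz12 regions the longest such run was 68637 bp in the knock-down list of H3K27me3 and 27355 bp in its control list. The Suz12 list upon EloB knock-down had a longer gap, with no peak from -36.0 to 61.8 kb around the centre of the chromosome 11 stretch. Whether reads were enriched there was not tested, since only called peaks were at hand.

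The 4 chromosomes are those that carry the Hoxa (chromosome 6), Hoxb (chromosome 11), Hoxc (chromosome 15) and Hoxd (chromosome 2) gene clusters in the RefSeq gene table of another build. Hox genes encode developmental transcription factors and are textbook targets of PRC2. Whether the stretches are these clusters was not checked, because no annotation of build mm9 was used here, and no gene is assigned to any peak. The stretches hold 0.172 Mb of missing peaks, 8.01% of all missing bases. Without them the kept share of control peaks was 77.1% and the covered length upon knock-down was 1.10 times that without. On chromosomes 11 and 15, where the covered length was smaller upon knock-down, the ratios without the stretches were 1.01 and 1.05.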

How the data were processed

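The 2 peak lists of H3K27me3 and the 18 lists of other targets were used as deposited. Each peak has a score that the authors deposited, with a minimum of 50, of which no definition is given. The submitters' processing notes name Bowtie, TopHat, Cufflinks and the mouse build mm9, with neither roles nor versions. Peak names carry MACS per the file headers, and the caller and its settings are not given in the sources used here. Both H3K27me3 track names carry IgG. Depth is unknown.

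Groups came from the sample titles, and the labels do not say that samples were separate cultures. Peaks were matched by an overlap of at least 1 bp. Regions of Suz12, EPOP, EloB and H3K4me3 were merged peaks without knock-down that hold a peak of both lists. Peaks were named by a rule: the 5 missing, kept and new peaks with the highest scores, the 3 widest of each list and the 5 overlap groups with the most control peaks and a single knock-down peak, of which some are printed. The members, classes and lists were chosen with earlier results of these data known. Splits by H3K4me3 off Suz12, Jarid2 upon knock-down, the 4 stretches and runs without H3K27me3 were chosen after seeing the data. Gene lists meant for promoters were not run, since no mm9 annotation was used here. The 10 RNA and IgG samples were not analysed here.

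Values were computed in Python 3.11.15 (NumPy 2.4.6 and SciPy 1.17.1), and figures in Matplotlib 3.10.9. Overlap counts equalled those of bedtools 2.31.1 in all 40 pairs of an H3K27me3 list with a list. On simulated data of 3244 regions for this comparison, all 300 new peaks were recovered. The simulation used only control peaks that were not wide and stood apart from others, with new peaks placed in empty space. It therefore did not check joined, split or wide peaks.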

Additional observations from a re-analysis of the deposited data

How the results depend on the processing

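No paired analysis was possible because H3K27me3 has 1 list per condition and no test was made. The kept share of control peaks was 73.7% when an overlap of 0.5 of the shorter peak was required and 81.1% when a distance of up to 1000 bp counted. It was 86.9% with scores of at least 100 in both lists, 81.3% with lists of equal length and 74.7% after joining peaks up to 1000 bp apart. For the same 5 settings the new share was 29.4%, 16.7%, 22.3%, 28.5% and 19.5%. The kept share off Suz12 regions was 35.6%, 50.7%, 47.7%, 46.0% and 34.8%. On Suz12 regions it was 89.7% with the 0.5 overlap, 93.9% with the distance and 93.1% at equal length. Against whole other lists, 93.5% of control peaks scoring at least 100 were kept and 8.80% of such knock-down peaks were new.

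The ratio of peak numbers, 0.889, depended on the score threshold: it was 1.00 from a score of 100, 1.24 from 200, 2.36 from 500 and 6.39 from 1000 (87 and 556 peaks), which shows that the scores of the lists are spread differently, and the knock-down list was the shorter one only with scores below 100 included. The ratio of covered length, 1.08, was 1.19 with scores of at least 100, 1.13 at equal length and 1.10 without the 4 stretches. The median log2 width ratio of single pairs was 0.179 with scores of at least 100, and that over all groups, 0.148, was 0.168 with the distance and 0.183 with the score minimum. The ratio of peak numbers on H3K4me3 off Suz12 stayed below 1: 0.708 with the score minimum, 0.782 at equal length and 0.557 off either Suz12 list, and 0.639 to 0.652 with 1 H3K4me3 list left out. That of peaks on neither mark was 1.31 with the score minimum, 1.52 at equal length and 0.833 after joining, and 1.07 to 1.12 with 1 H3K4me3 list left out.

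With 1 Suz12 list left out, the kept share ranged from 90.4% to 90.8% on Suz12 regions and from 34.8% to 49.0% off them. With a peak in either list it was 88.9%, and with none in either 34.6%. In the same way the ratio of bases ranged from 1.24 to 1.39 in the 1000 bp flank and from 1.03 to 1.07 inside, the share of Suz12 regions with H3K27me3 that had none upon knock-down from 9.70% to 9.73%, and the gained share from 20.3% to 34.1%. With 1 EPOP list left out, the kept share within Suz12 regions ranged from 92.1% to 93.8% with EPOP and from 79.5% to 90.1% without. The 4 stretches, score minimum of 200, whole other lists, either Suz12 list, H3K4me3 splits and flank settings were added after seeing the data. Depth is unknown, so how much signal remained at missing peaks was not tested.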
